A study of Mus musculus with 8 samples.

Results

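The genes described here are 10 transcripts that the FGF-ERK pathway is known to switch on, in mouse embryonic stem cells labelled wild type or knockout for the chromatin remodeller gene Ino80. They were taken by symbol: Spry1, Spry2 and Spry4, Spred1, Dusp4 and Dusp6, Etv4 and Etv5, and Egr1 and Fos. All 10 were found among the 24505 rows of the files, and all 10 were among the 13428 genes tested, which had at least 1 RPKM in at least 2 of the 8 libraries. Dusp4 reached that level through the primed libraries, since its mean was below 1 RPKM in both naive groups.

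Fibroblast growth factor binds receptor tyrosine kinases and, through RAS and MEK, activates the kinase ERK. ERK then induces immediate early genes such as Egr1 and Fos, and the PEA3-type ETS factors Etv4 and Etv5. It also induces its own inhibitors: Sprouty and SPRED proteins restrain signalling upstream of MEK, and the phosphatases of Dusp4 and Dusp6 remove phosphate from ERK. In mouse pluripotent cells, blocking MEK favours the naive state, and FGF signalling supports the primed, epiblast-like state.

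All libraries came from 1 embryonic stem cell line with a conditional Ino80 allele, INO80 being the ATPase of a chromatin remodelling complex. Naive cells were grown on gelatin in N2B27 medium with PD0325901, an inhibitor of MEK, CHIR99021, an inhibitor of GSK3, and LIF. Primed cells were grown on fibronectin in N2B27 with FGF-2 at 12 ng/ml, Activin A at 20 ng/ml and the tankyrase inhibitor XAV-939 at 2 µM. To delete Ino80, cells had 100 nM 4-OHT over 2 days and were used after 2 further days; the sources used here do not say whether wild-type cells had 4-OHT too. Total RNA gave 2 wild-type and 2 knockout libraries, by label, for each state, 4 groups and 8 libraries in all, and the labels do not state that the libraries within a group were separate cultures.

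The RPKM values, read counts set relative to gene length and library size, hold no 0, and the sources used here do not give their scaling; depth is unknown, and the summed RPKM of a library ran from 341480 to 507598. Genes tied with an earlier gene in the files, 3049 in naive and 3403 in primed libraries, were tied alike in all 4 libraries of their state, and 1938 were tied alike in the other state too. Whether the states were scaled together is not given, so their levels are set side by side with no test between them. Naive markers summed to between 812 and 920 RPKM in naive wild-type and to between 8.07 and 11.2 in primed wild-type libraries, and primed markers to between 37.2 and 44.1 and between 286 and 332. Ino80 itself stood at 15.9 and 15.1 RPKM in the naive libraries labelled knockout against 17.0 and 14.5 in wild type. That difference did not pass as deposited (limma adjusted p = 0.975), so the naive libraries are called labelled knockout. Its log2 change was -0.081 after quantile normalization (limma adjusted p = 0.0808) and -0.076 with median centring (0.474). After loess normalization it was -0.099 and passed (0.0461), where 28.4% of all tested genes were called lower. In the primed state Ino80 stood at 9.12 and 8.74 against 15.9 and 20.3 RPKM, a log2 change of -0.93 ± 0.18 (limma adjusted p = 2.0e-06). That change was -0.40 relative to the median of all genes, -0.26 after quantile normalization (adjusted p = 2.3e-04) and -0.24 with median centring (0.0124). A value for the whole gene cannot show, in either state, whether a part of it was deleted. The median change over all tested genes was 0.049 in the naive and -0.53 in the primed comparison on the log2 scale. Changes in the primed state are as deposited unless a scaling is named, and some are given also relative to that median. The sources used here do not say whether spike-in RNA was used, so less RNA per cell and the scaling of the libraries cannot be told apart for the primed fall of most genes.

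Promoter windows from RefSeq, 250 bases before to 50 after the start of a gene in build GRCm38.p6, were matched by symbol for 6 of the 10 genes. They were searched on both strands for an ETS motif (CCGGAA), the core of the cyclic AMP response element (TGACG), the AP-1 motif (TGANTCA) and the CArG box bound by serum response factor. The windows of Spry1, Spry2 and Fos are shown because Spry1 and Spry2 went opposite ways in the primed state and Fos went opposite ways in the 2 states. Capitals mark motif matches. Spry1 is at chr3:37639697-37639996, plus strand, Spry2 at chr14:105896770-105897069, minus strand, and Fos at chr12:85473640-85473939, plus strand.
Spry1: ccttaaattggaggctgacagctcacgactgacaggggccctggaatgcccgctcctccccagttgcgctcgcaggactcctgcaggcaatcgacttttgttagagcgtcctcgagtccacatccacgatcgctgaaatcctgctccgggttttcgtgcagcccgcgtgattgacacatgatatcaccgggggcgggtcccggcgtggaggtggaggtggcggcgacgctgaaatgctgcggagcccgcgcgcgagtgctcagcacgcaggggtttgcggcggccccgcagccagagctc
Spry2: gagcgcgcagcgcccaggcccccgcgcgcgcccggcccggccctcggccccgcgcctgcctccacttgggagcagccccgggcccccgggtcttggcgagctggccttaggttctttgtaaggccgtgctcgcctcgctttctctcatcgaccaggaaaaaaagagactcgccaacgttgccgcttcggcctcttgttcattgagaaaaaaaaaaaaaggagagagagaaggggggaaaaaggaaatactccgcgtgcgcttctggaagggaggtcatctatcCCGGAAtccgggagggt
Fos: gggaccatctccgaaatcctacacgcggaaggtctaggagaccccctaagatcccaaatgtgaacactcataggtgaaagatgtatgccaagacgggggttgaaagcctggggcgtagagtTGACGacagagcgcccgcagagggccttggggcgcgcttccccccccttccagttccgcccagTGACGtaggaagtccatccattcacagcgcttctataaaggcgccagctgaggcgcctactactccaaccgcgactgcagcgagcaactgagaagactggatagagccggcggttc
In the Spry2 window an ETS match begins 33 bases after the start, and 14.9% of all 32851 windows hold such a match. The Fos window holds 2 such core sites of the cyclic AMP response element, which begin 129 and 66 bases before the start, and 20.8% of all windows hold at least 1. The Spry1 window holds none of the 4 motifs, nor do those of Dusp6, Etv5 and Spred1, while the AP-1 motif and the CArG box occur in 7.81% and 1.63% of all windows.

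In wild-type cells Spry1, Spry2, Spry4, Spred1 and Dusp6 ranked higher in the primed than in the naive state, Spry2 by under 2 percentiles. Of these, Dusp6 and Spry4 were furthest apart. Dusp4 ranked higher too, but it passed the filter through its primed libraries, so its difference adds no support to the pattern. Dusp6, the cytosolic ERK phosphatase, stood at 7.85 and 5.40 RPKM in naive wild-type libraries and at 208 and 234 in primed ones. It ranked at the 41.2 and 40.8 percentile of the tested genes in the naive libraries and at the 98.1 and 98.2 percentile in the primed ones. A rank within a library does not depend on any scaling that keeps the order of its genes. Dusp4, a nuclear ERK phosphatase, stood at 1.05 and 0.462 RPKM in naive wild-type libraries, the 8.66 and 9.28 percentile, and at 15.8 and 22.4 in primed ones, the 58.4 and 61.2 percentile. Spry4 stood at 1.73 and 1.14 against 20.5 and 26.0 RPKM, with percentiles of 14.2 and 18.0 against 65.7 and 65.8.

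Spry1 and Spred1 differed in the same direction by less. Spry1 stood at 7.83 and 6.05 RPKM in naive and at 18.6 and 25.3 in primed wild-type libraries, and its percentile was 41.1 and 42.9 against 63.0 and 65.0. Spred1, whose product restrains RAS signalling, stood at 11.4 and 9.23 against 28.8 and 35.6 RPKM, with percentiles of 50.4 and 51.5 against 74.9 and 75.1. For all 6 inhibitors and for Etv4, both primed wild-type values lay above both naive ones, in RPKM and in rank. The share of all tested genes for which this held was not computed, so it is given as a description only.

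The remaining genes lay closer together or in the reverse order. Spry2, the most abundant Sprouty gene, stood at 48.3 and 48.5 RPKM in naive and at 54.1 and 62.6 in primed wild-type libraries, and within 2 percentiles in rank, at 87.0 and 86.8 against 88.0 and 87.8. Etv4 stood at 41.6 and 41.1 against 56.7 and 63.6 RPKM, with percentiles of 84.2 and 84.3 against 88.7 and 88.2. Etv5 was the reverse, at 84.4 and 92.0 against 56.9 and 62.8, and so was Egr1, a zinc-finger transcription factor, at 95.1 and 106 against 59.6 and 70.9. Fos, a subunit of the transcription factor AP-1, stood at 22.7 and 19.2 against 20.8 and 28.3 RPKM, and its groups overlapped. Egr1, Etv5 and Spry2 thus stood above 48 RPKM in every naive wild-type library, in medium with a MEK inhibitor.

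**Figure D1:**
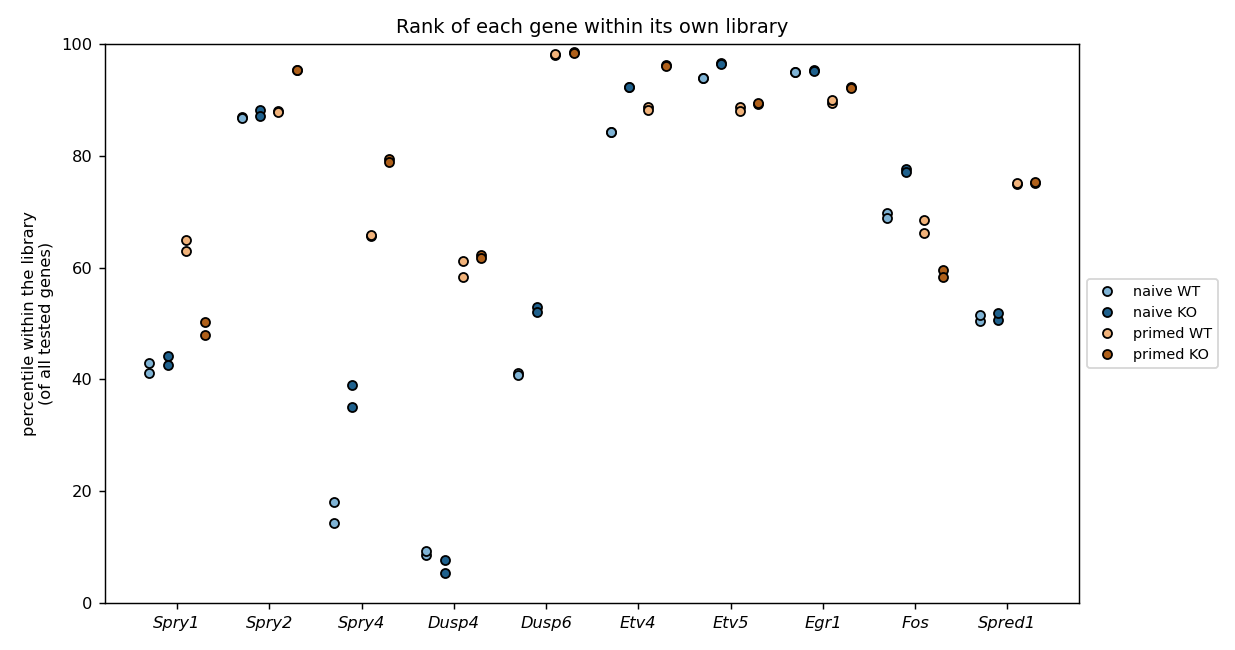
Percentile rank (vertical axis, 0 to 100) of each gene among the 13428 tested genes of its own library, with 1 point for each of the 8 libraries, coloured by group. Dusp6 lies near the 41 percentile in naive wild-type and above the 98 percentile in primed wild-type libraries, while Spry2 lies close to the 87 or 88 percentile in both.

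Ordered by mean RPKM in naive wild-type cells, Egr1 at 100 was followed by Etv5 at 88.2, Spry2 at 48.4, Etv4 at 41.4, Fos at 20.9, Spred1 at 10.3, Spry1 at 6.94, Dusp6 at 6.63, Spry4 at 1.44 and Dusp4 at 0.755. In that order Spry1 and Dusp6 were the neighbours whose 2 libraries overlapped. In primed wild-type cells Dusp6 led at 221 RPKM, far above Egr1, Etv4, Etv5 and Spry2 at 65.3, 60.1, 59.9 and 58.4, whose ranges overlapped one another. Spred1 at 32.2 lay just above the range of Fos at 24.6, and Fos, Spry4 at 23.2, Spry1 at 22.0 and Dusp4 at 19.1 overlapped with their neighbours.

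**Figure D2:**
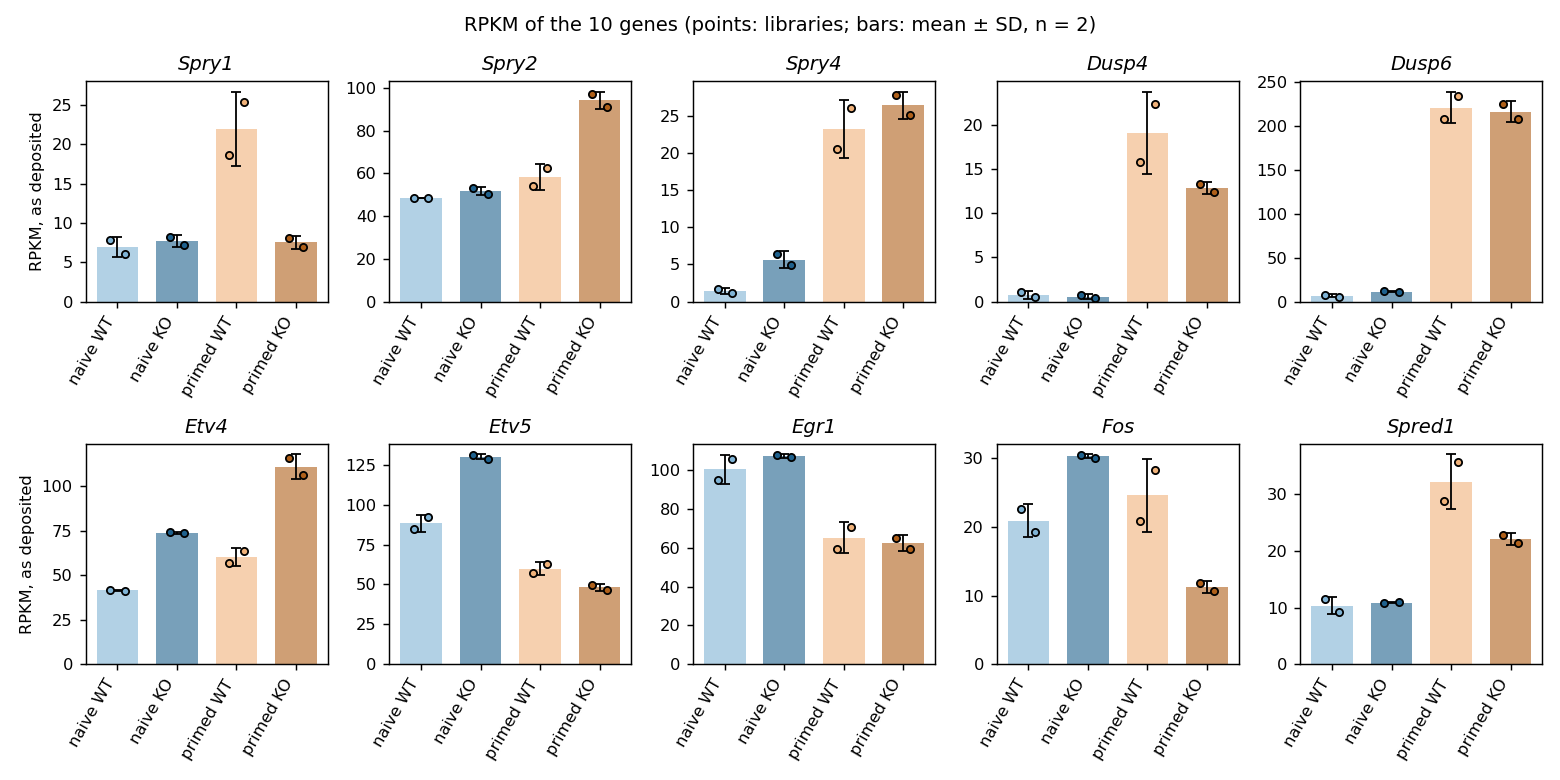
RPKM as deposited (vertical axis, starting at 0, with its own scale for each gene) of the 10 genes in 4 groups. Points are libraries and bars are the mean ± SD of 2 libraries; Etv4 is higher in libraries labelled knockout than in wild type in both states, while Fos is higher in the naive ones labelled knockout and lower in the primed knockout ones.

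In the naive state, 5 of the 10 genes rose in the libraries labelled knockout and 0 fell, where 6.08% of all 13428 tested genes were called higher and 5.85% lower. The 5 were Spry4, Dusp6, Etv4, Etv5 and Fos, and their calls come from limma with Benjamini-Hochberg adjustment over all tested genes at 0.05. Both libraries labelled knockout lay above both wild-type libraries for 7 of the 10 genes and below them for 0, against 31.2% and 21.0% of all tested genes. The median change of the 10 genes was 0.33, beside 0.049 over all tested genes. After quantile and after loess normalization 6 of the 10 were higher and 0 lower, against 32.0% and 27.2% of all tested genes with the former and 29.1% and 28.4% with the latter.

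Among the feedback inhibitors, Spry4 stood at 6.42 and 4.89 RPKM where labelled knockout and at 1.73 and 1.14 in wild type. The groups did not overlap, and the mean was 3.94-fold higher, a log2 change of 1.45 ± 0.22 (SE; limma adjusted p = 7.3e-09). Spry4 is weakly expressed here. Among the lowest 25% of genes, naive wild-type replicate 1 lay above replicate 2 by a median log2 of 0.49. Among the highest 25% that median was -0.027. The Spry4 change was 1.40 after loess normalization within the state, and between 1.28 and 1.63 when any 1 library was left out.

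Dusp6 stood at 11.8 and 11.01 against 7.85 and 5.40 RPKM, labelled knockout against wild type. It was 1.72-fold higher, a log2 change of 0.72 ± 0.11 (limma adjusted p = 3.1e-08), and its groups did not overlap. It ranked at the 53.0 and 52.0 percentile in libraries labelled knockout, below the 98.1 percentile of the lower primed wild-type library. The other inhibitors did not pass: Spry1 stood at 8.21 and 7.15 against 7.83 and 6.05, Spry2 at 53.1 and 50.4 against 48.3 and 48.5, Spred1 at 10.8 and 10.97 against 11.4 and 9.23, and Dusp4 at 0.741 and 0.369 against 1.05 and 0.462 RPKM. Of these, only Spry2 had groups that did not overlap, and its change was 0.094 ± 0.10 (limma adjusted p = 0.677).

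Both ETS factors rose in the naive libraries labelled knockout. Etv4 stood at 74.0 and 73.4 against 41.6 and 41.1 RPKM, 1.78-fold higher, a log2 change of 0.82 ± 0.10 (limma adjusted p = 2.4e-13). Etv5 stood at 131 and 129 against 84.4 and 92.0 RPKM, 1.47-fold higher, a change of 0.55 ± 0.099 (limma adjusted p = 9.8e-07). For both genes the libraries of a group lay close together and the groups were well apart.

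Of the immediate early genes, Fos passed in the naive state and Egr1 did not. Fos stood at 30.5 and 30.1 against 22.7 and 19.2 RPKM, 1.45-fold higher, a log2 change of 0.52 ± 0.16 (limma adjusted p = 0.0113). That call was lost without naive knockout replicate 1 (limma adjusted p = 0.312), naive knockout replicate 2 (0.273) or naive wild-type replicate 2 (0.188). Egr1 stood at 108 and 107 against 95.1 and 106 RPKM, groups that nearly met, a change of 0.098 ± 0.097 that did not pass (limma adjusted p = 0.627).

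Of 63 other pathway genes tested, 5 rose and 3 fell in the naive state, 7.94% and 4.76%, near the 6.08% and 5.85% of all tested genes. Of 13 further ERK targets, 11 were tested, of which 1 rose and 0 fell. The riser was the receptor tyrosine kinase gene Epha2, at 75.2 ± 2.37 against 50.3 ± 0.246 RPKM (SD, n = 2; limma adjusted p = 6.9e-06). Of 17 other immediate early genes, 4 rose and 0 fell. Jun, the partner of FOS in AP-1, stood at 22.4 ± 0.112 against 9.84 ± 1.35 RPKM, a change of 1.12 (limma adjusted p = 2.3e-11). Atf3, which stress also induces, changed by 0.80 and Zfp36, an mRNA decay factor, by 0.65, calls that did not hold when naive knockout replicate 1 (limma adjusted p = 0.258 and 0.466), naive knockout replicate 2 (0.153 and 0.261) or naive wild-type replicate 2 (0.102 and 0.215) was left out; that of Zfp36 also rested on each primed knockout library (0.108 and 0.106). Of 35 tested genes of the cascade itself, from ligands to kinases, 0 rose and 3 fell. Mapk3, which encodes ERK1, stood at 18.8 ± 1.56 against 32.2 ± 1.43 RPKM (limma adjusted p = 4.7e-07). Dusp9, another ERK phosphatase, changed by -0.59, a call not made when naive knockout replicate 2 (limma adjusted p = 0.328), naive knockout replicate 1 (0.0914) or naive wild-type replicate 1 (0.0835) was left out. The median change of the 3 lists was 0.26, 0.17 and 0.055 in the same order. After quantile normalization 6 ERK targets were higher and 2 lower, 7 and 2 immediate early genes, and 13 and 10 cascade genes; the 63 genes together gave 41.3% higher and 22.2% lower, beside 32.0% and 27.2% of all genes.

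Primed markers summed to between 50.8 and 54.3 RPKM in naive libraries labelled knockout and to between 37.2 and 44.1 in wild type. They did not move as a group: 1 of the 6 was called higher and 1 lower, beside 6.08% and 5.85% of all tested genes. Zic2, which made up most of the gap, stood at 29.4 against 18.5 RPKM, and Sox3 went the other way, at 1.31 against 3.00. Of the marker lists for other lineages, the neural one moved with the naive groups, summing to between 83.5 and 86.4 RPKM in libraries labelled knockout and to between 44.3 and 50.8 in wild type, with 3 of its 6 genes below 1 RPKM in both libraries of each group. Tubb3, which made up most of that sum, stood at 74.3 against 39.7 RPKM, Nes at 8.83 against 5.57 (not called without naive knockout replicate 1 or naive wild-type replicate 2, limma adjusted p = 0.074 and 0.134), and Sox1 and Pax6, which define neural progenitors, did not pass. The part of either list in the changes of the 5 risers was not tested. In bulk RNA, fewer cells that express a gene and less RNA per cell cannot be told apart.

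In the primed state, 2 of the 10 genes rose and 4 fell in the knockout libraries as deposited, where 4.16% of all tested genes were called higher and 59.3% lower. The risers were Spry2 and Etv4, and those that fell were Spry1, Etv5, Fos and Spred1. Both knockout libraries lay above both wild-type libraries for 2 genes and below them for 5, against 6.77% and 76.4% of all tested genes. The median change of the 10 genes was -0.18, beside -0.53 over all tested genes. After quantile normalization, which gives every library the same distribution of values, 6 of the 10 were higher and 2 lower, against 39.0% and 35.1% of all tested genes, while loess normalization gave 5 and 2, against 37.0% and 36.5%, and median centring 5 and 2, against 41.6% and 23.6%. As deposited and under each of these 3 scalings, Spry2 and Etv4 were called higher and Spry1 and Fos lower.

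The Sprouty genes went different ways in the primed state. Spry2 stood at 97.1 and 91.2 against 54.1 and 62.6 RPKM, knockout against wild type, 1.61-fold higher, a log2 change of 0.68 ± 0.10 (limma adjusted p = 6.8e-10). Relative to the median of all genes its change was 1.22, and after quantile normalization it was 1.02. Spry1 stood at 8.13 and 6.96 against 18.6 and 25.3 RPKM, 2.91-fold lower, a change of -1.42 ± 0.22 (limma adjusted p = 7.6e-10), which was -0.88 relative to the median of all genes and became -0.77 with quantile normalization (adjusted p = 1.1e-05). Its knockout values lay within the range of the naive libraries, 6.05 to 8.21 RPKM as deposited. In rank, at the 50.2 and 47.9 percentile, they lay above all naive libraries, which ran from 41.1 to 44.2. A predicted gene overlaps Spry1 on the opposite strand in the GENCODE annotation of GRCm38, and since the strand counted is not given, its reads cannot be told apart from those of Spry1.

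Spry4 stood at 27.7 and 25.2 against 20.5 and 26.0 RPKM, groups that overlapped, a change of 0.19 ± 0.22 that did not pass (limma adjusted p = 0.475). In rank it moved up, from the 65.7 and 65.8 percentile in wild type to the 79.4 and 79.0 percentile in knockout. After quantile normalization its change was 0.76 and passed (adjusted p = 1.5e-04). The share of Spry2 in the summed RPKM of the 3 Sprouty genes was 58.05% and 54.96% in primed wild-type and 73.0% and 73.9% in primed knockout libraries, and that of Spry1 was 20.0% and 22.2% against 6.11% and 5.65%. That of Spry4 was 22.0% and 22.8% against 20.9% and 20.4%. In naive cells the share of Spry4 was 2.99% and 2.05% in wild-type libraries and 9.48% and 7.83% in those labelled knockout. Shares within a library are free of any factor common to its genes, and the depth behind them is unknown. They are not free of a shift that varies with the level of a gene, and nor are the ratios given below. The primed change of the abundant Spry2 was 1.38 with median centring and 1.02 after quantile normalization, while that of Spry1 was -0.72 and -0.77.

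The ETS factors, which rose together in the naive state, parted in the primed state. Etv4 stood at 116 and 106 against 56.7 and 63.6 RPKM, 1.84-fold higher, a log2 change of 0.87 ± 0.10 (limma adjusted p = 2.9e-16), which was 1.41 relative to the median of all genes and became 1.17 with quantile normalization. Etv5 stood at 49.7 and 46.8 against 56.9 and 62.8 RPKM, 1.24-fold lower, a change of -0.30 ± 0.099 (limma adjusted p = 0.00444). That fall was smaller than the median of all genes, turned to 0.096 after quantile normalization (adjusted p = 0.0205), and was not called without primed knockout replicate 2 (limma adjusted p = 0.0982). The ratio of Etv4 to Etv5 RPKM within a library was 0.493 and 0.447 in naive wild type, 0.565 and 0.570 in naive libraries labelled knockout, 0.996 and 1.01 in primed wild type and 2.33 and 2.26 in primed knockout. The 4 groups did not overlap in this ratio, and with 2 libraries a group an exact two-sided permutation test between 2 groups cannot go below p = 0.333, so none was run.

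**Figure D3:**
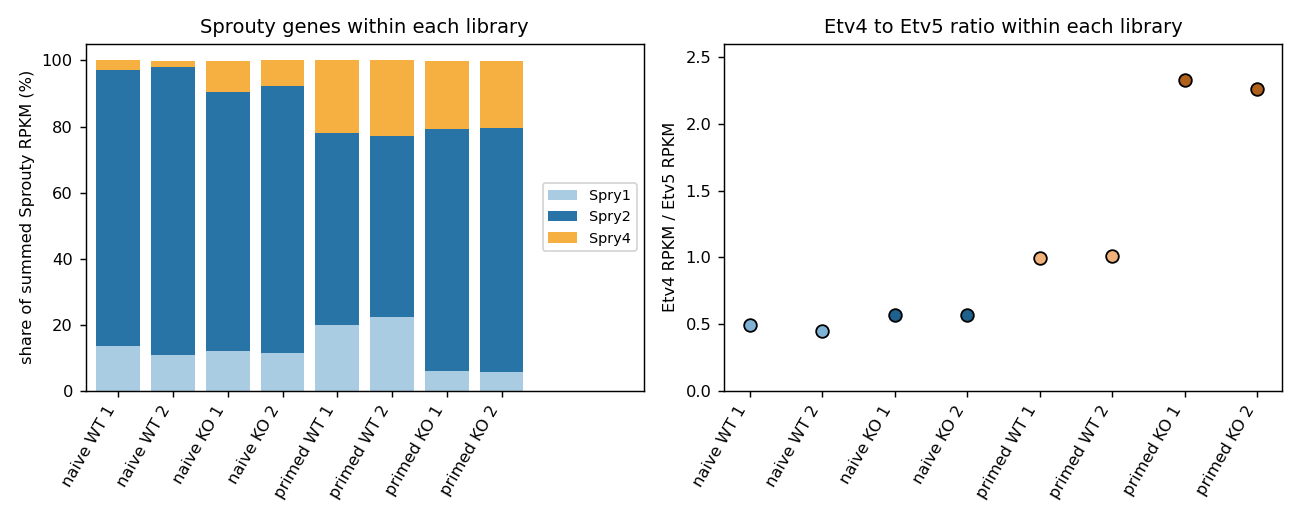
Left, share of Spry1, Spry2 and Spry4 in their summed RPKM (vertical axis, percent) in each of the 8 libraries; right, ratio of Etv4 to Etv5 RPKM (vertical axis, starting at 0) in the same libraries. The Spry1 share is 20.0% and 22.2% in primed wild type and 6.11% and 5.65% in primed knockout, and the Etv4 to Etv5 ratio is above 2 in primed knockout libraries only.

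Of the immediate early genes, Fos fell in the primed state and Egr1 did not pass. Fos stood at 11.9 and 10.6 against 20.8 and 28.3 RPKM, 2.19-fold lower, a log2 change of -1.05 ± 0.16 (limma adjusted p = 1.6e-10), which was -0.52 relative to the median of all genes and became -0.43 with quantile normalization (adjusted p = 4.8e-05). Egr1 stood at 65.2 and 59.4 against 59.6 and 70.9 RPKM, overlapping groups, a change of -0.062 ± 0.097 (limma adjusted p = 0.597). After quantile normalization the Egr1 change was 0.31 and passed (adjusted p = 1.4e-05). The ratio of Egr1 to Fos within a library was 2.86 and 2.504 in primed wild-type and 5.49 and 5.61 in primed knockout libraries, and 4.199 and 5.51 against 3.54 and 3.55 in the naive ones.

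The ERK phosphatases and Spred1 gave no change that held both as deposited and under each scaling. Dusp6 stood at 225 and 208 against 208 and 234 RPKM, overlapping groups, a change of -0.029 ± 0.11 (limma adjusted p = 0.844), and 0.16 after quantile normalization (adjusted p = 0.00195). Dusp4 stood at 13.3 and 12.3 against 15.8 and 22.4 RPKM, a change of -0.52 ± 0.28 that did not pass (limma adjusted p = 0.089) and lay at the median of all genes. Spred1 stood at 22.8 and 21.3 against 28.8 and 35.6 RPKM, 1.46-fold lower, a change of -0.52 ± 0.17 (limma adjusted p = 0.00472). It too lay at the median of all genes, its rank was the 75.1 and 75.2 percentile in knockout against 74.9 and 75.1 in wild type, and it was not called without primed knockout replicate 2 (limma adjusted p = 0.111).

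**Figure D4:**
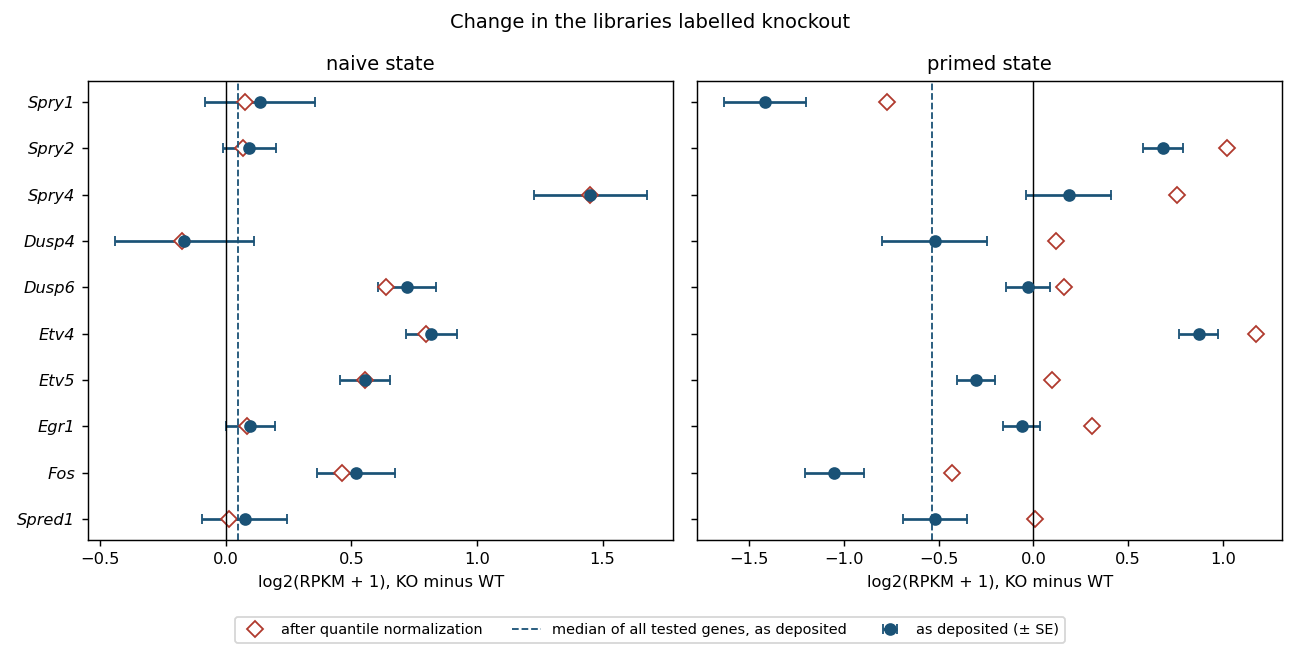
Change of each gene in log2(RPKM + 1), libraries labelled knockout minus wild type (horizontal axis), in the naive (left) and primed (right) state. Filled points are the values as deposited ± SE from limma, open diamonds the values after quantile normalization and dashed lines the median of all tested genes as deposited, 0.049 and -0.53; in the primed state the diamonds of Dusp4, Dusp6, Etv5, Egr1 and Spred1 lie on the other side of 0 from the points.

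Of the 63 other pathway genes 2 rose and 43 fell in the primed knockout libraries as deposited, 3.17% and 68.3%, beside 4.16% and 59.3% of all tested genes. Of the 11 further ERK targets tested, 0 rose and 5 fell, 45.5%, with a median of -0.34. Ier3, an immediate early gene tied to cell survival, changed by -1.28, Dusp5, a nuclear ERK phosphatase, by -0.84 and Spred2, a relative of Spred1, by -0.71, and the Dusp5 call ended without primed knockout replicate 2 (limma adjusted p = 0.0639). Of the 17 other immediate early genes 1 rose and 13 fell, 76.5%, with a median of -0.78. Fosb, another AP-1 subunit, stood at 2.11 ± 0.132 against 15.0 ± 3.75 RPKM, a change of -2.35 (limma adjusted p = 8.2e-16), and Atf3 and Zfp36 changed by -1.75 and -1.23. Egr3, a relative of Egr1, was the riser, at 5.39 ± 0.869 against 2.95 ± 0.888 RPKM, a change of 0.71 (limma adjusted p = 0.0144) that was not called without primed knockout replicate 1 (limma adjusted p = 0.192), primed knockout replicate 2 (0.054) or primed wild-type replicate 1 (0.133). With quantile normalization 4 immediate early genes were called higher and 7 lower, their median being -0.15, and 8 and 2 of the 11 further ERK targets, beside 39.0% and 35.1% of all genes.

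Of the 35 tested cascade genes 1 rose and 25 fell, 71.4%, with a median of -0.65. The riser was the ligand gene Fgf5, a marker of the primed epiblast, at 18.2 ± 1.45 against 5.15 ± 1.19 RPKM, a change of 1.65 (limma adjusted p = 3.0e-08). Other ligand genes fell: Fgf4 stood at 0.443 against 6.12 RPKM, Fgf15 at 2.24 against 15.6 and Fgf8 at 1.68 against 7.54, with changes of -2.34 for Fgf15, -2.29 for Fgf4 and -1.65 for Fgf8. After quantile normalization these 4 changes were 2.36 for Fgf5, -1.62 for Fgf15, -1.61 for Fgf4 and -0.89 for Fgf8, and 11 cascade genes were higher and 18 lower.

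Mesoderm markers moved with the primed groups: their summed level was between 41.2 and 45.0 RPKM in knockout and between 5.08 and 6.93 in wild-type libraries, with 4 and 3 of their 6 genes below 1 RPKM in both libraries. T, the gene of Brachyury, made up most of that sum at 35.5 against 2.42 RPKM, and Eomes stood at 6.59 against 1.18. Tbx6 was called lower, at 0.862 against 1.84 RPKM, with a change of 0.018 after quantile normalization, and Mixl1, not tested, stood at 0.0565 against 0.411. Fibroblast markers summed to between 16.0 and 16.8 RPKM in knockout and between 38.2 and 52.3 in wild type, with 3 of 8 genes below 1 RPKM in both libraries of each group. Of the neural markers Sox1 fell, at 1.68 against 9.63 RPKM, as did Pax6, at 0.960 against 9.04, and Tubb3, at 20.7 against 55.7, while Nes rose, at 134 against 73.6. Their sum overlapped, at 153 to 162 RPKM in knockout and 136 to 160.4 in wild type, and 2 of 6 were below 1 RPKM in both libraries of each group. Naive markers summed to between 3.40 and 3.43 RPKM in knockout and between 8.07 and 11.2 in wild type, with 7 and 4 of 8 genes below 1 RPKM. As deposited, the endoderm, trophoblast and primed marker sums were lower in knockout too. They stood at 2.62 to 2.93 against 3.91 to 5.996, at 2.27 to 2.48 against 3.57 to 5.88 and at 263 to 284 against 286 to 332 RPKM. After quantile normalization the median changes of their tested genes were 0.071, 0.059 and 0.067 in that order. For the naive and fibroblast markers these medians were -0.14 and -0.63. The primed markers went different ways: Fgf5 stood at 18.2 against 5.15 RPKM, Sox3 at 4.80 against 15.2 and Pou3f1 at 8.34 against 17.0. With quantile normalization 3 of the 6 were called higher and 2 lower, beside 39.0% and 35.1% of all tested genes. The part of these lists in the changes of the 10 genes was not tested.

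The change from wild type to libraries labelled knockout differed between the states for 7 of the 10 genes as deposited, 1 with a higher value in the primed state and 6 with a lower one, where 2.16% and 47.4% of all tested genes were called so. The level of Ino80 RNA as deposited did not differ by the test within the naive state, so the comparison is between labels there. The median difference over all genes, primed minus naive, was -0.59 on the log2 scale. As deposited the largest difference among the 10 was that of Fos, which rose in the naive and fell in the primed state, at -1.57 ± 0.22 (limma adjusted p = 5.5e-11) and -0.89 after quantile normalization. Spry1 differed by -1.55 ± 0.31 (limma adjusted p = 6.2e-06) and Spry4 by -1.26 ± 0.32 (limma adjusted p = 3.9e-04), and with quantile normalization these were -0.85 and -0.69. Spry2 was the gene with a higher value in the primed state, at 0.59 ± 0.15 (limma adjusted p = 4.3e-04) and at 0.95 with quantile normalization. Relative to the median of all genes its difference was 1.18 and that of Fos -0.98, and Spry2 was also further from 0 than Fos after quantile normalization, after loess normalization (0.92 and -0.91) and with median centring (1.34 and -0.82). These 4 differences passed under every alternative run.

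The differences of Etv5, at -0.86 ± 0.14 (limma adjusted p = 2.1e-08), and of Dusp6, at -0.75 ± 0.16 (limma adjusted p = 4.0e-05), passed after quantile and loess normalization but not with median centring, where they were -0.11 and 0.0025. Spred1 differed by -0.59 ± 0.24 (limma adjusted p = 0.0306), which was -0.0062 after quantile normalization and was not called when any 1 library other than naive wild-type replicate 1 and primed wild-type replicate 1 was left out (limma adjusted p from 0.0664 to 0.186). Etv4 rose in both states, and the difference of its changes was 0.053 ± 0.14 (limma adjusted p = 0.764), while quantile normalization gave 0.38 (adjusted p = 6.3e-05). Egr1 and Dusp4 did not differ beyond the spread as deposited (limma adjusted p = 0.318 and 0.441). The Egr1 difference turned to 0.22 after quantile (limma adjusted p = 0.0011) and 0.16 after loess normalization (0.0079), and both passed. That of Dusp4 turned to 0.39 and passed with median centring (limma adjusted p = 0.0261), but did not pass after quantile normalization (0.0528).

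Among 9167 other genes with a mean of at least 5 RPKM, those whose pattern over the 8 libraries was most like a gene's, after the mean of each state was removed, were named as a description. For Spry4 they were Fam83h, Nat6 and Srgap2, with Pearson correlations of 0.995, 0.986 and 0.985. For Dusp6 they were Slco4a1, Rab27a and Ada, at 0.994, 0.991 and 0.988, and for Etv5 Spint2, Sesn2 and Actn4, at 0.997, 0.996 and 0.993. For Egr1 they were Aamp, Lrrc59 and Puf60, at 0.977, 0.972 and 0.965. The 8 points share their libraries and, in the primed state, the shift of all genes.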

How the data were processed

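RNA-seq values of 8 libraries in 4 groups of 2 were used. The sources used here do not give how the authors scaled the deposited RPKM values, which hold no 0 and have the same ties in all 4 libraries of a state. The submitters' processing notes name cutadapt 1.9, STAR 2.5.2b, featureCounts 1.5.1, affy and mm9. The sources used here give neither the strand counted nor the depth.

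The filter of at least 1 RPKM in 2 or more libraries left 13428 genes. On log2(RPKM + 1), limma 3.58.1 (R 4.3.3) fitted 4 group means with a variance trend, and Benjamini-Hochberg adjusted p-values under 0.05 were called. This scale understates changes of weak genes; folds in the text are ratios of mean RPKM. The prior degrees of freedom were infinite beside 4 residual ones, so each variance is the trend's own and small p-values come out very small. P-values reflect only library spread, which may be technical. Simulated data served to test the procedure, and matplotlib 3.10.9 drew the figures.

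The members and lists were chosen with earlier results of these data known. Outside the 10 genes, the text names Ino80, marker genes, up to 3 called genes per direction from each pathway list with at least 5 RPKM in the higher group, and the 3 genes most like each of Spry4, Dusp6, Etv5 and Egr1. 1 gene that this rule names is not reported here. Alternatives changed the pseudocount (0.1), the filter (none, or 5 RPKM), the scaling (median centring, quantile, loess), the variance trend and the samples (each state alone, each library left out), or added the replicate number.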

Additional observations from a re-analysis of the deposited data

Results flagged for a closer look

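The change from wild type to libraries labelled knockout was compared between the 2 states by the test of the difference itself (limma, primed minus naive, adjusted over all tested genes). In the naive state the level of Ino80 as deposited did not pass. The change differed for 7 of the 10 genes, 6 lower and 1 higher, where 47.4% of all tested genes were called lower and 2.16% higher. The differences were -1.57 for Fos (adjusted p = 5.5e-11), -0.86 for Etv5 (2.1e-08), -1.55 for Spry1 (6.2e-06), -0.75 for Dusp6 (4.0e-05), -1.26 for Spry4 (3.9e-04), 0.59 for Spry2 (4.3e-04) and -0.59 for Spred1 (0.0306). The median difference over all tested genes was -0.59, so that of Spred1 lay at the median. Spry2 lay on the other side of it, and Fos and Spry1 lay 0.98 and 0.96 below it. With 2 libraries a group, no library was tested for standing apart from its group.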

How the results depend on the processing

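Depth is unknown and limits weak genes such as Dusp4 in naive cells by an amount that cannot be given. The number of the 10 genes called was 5, 6 and 7 in the naive, primed and difference comparisons. With no trend in the variance, the naive count was 3, without Etv5 and Fos, beside 908 of all tested genes. Leaving out 1 library gave 4 to 5, 4 to 8 and 6 to 8, and such a fit takes the spread of the remaining library from the other groups. The naive count over all tested genes was 1602 and ran from 552 without naive knockout replicate 1 to 7958 after quantile normalization. Without primed knockout replicate 2 the primed count was 5539, from 8517, and that of the difference 3457, from 6658. The numbers shared by replicates are not stated to pair them. Deviations of same-numbered libraries correlated across genes at 0.31 in the naive and -0.036 in the primed state. The fit with the replicate block called 4, 5 and 6 genes, beside 942, 7672 and 5171 of all tested genes. Of 500 values of single genes under the alternatives, 430 kept direction and call, 14 became called, 23 lost their call and 33 changed sign; the cause was not tested.

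In the primed comparison, signs turned with median centring to 0.17 for Dusp4, 0.67 for Dusp6, 0.39 for Etv5, 0.63 for Egr1 and 0.17 for Spred1. After quantile normalization they turned to 0.12 for Dusp4, 0.16 for Dusp6, 0.096 for Etv5, 0.31 for Egr1 and 0.0076 for Spred1. After loess normalization they turned to 0.089 for Dusp4, 0.18 for Dusp6, 0.042 for Etv5 and 0.25 for Egr1. In the difference, the same 3 scalings in that order gave 0.39, 0.29 and 0.26 for Dusp4 and 0.59, 0.22 and 0.16 for Egr1, and median centring gave 0.0025 for Dusp6 and 0.16 for Spred1. Loess normalization gave -0.013 for Spred1 in the naive comparison. Over the fits that leave out 1 library, values turned sign within these ranges: -0.027 to 0.3 for Spry1, -0.41 to 0.079 for Dusp4 and -0.065 to 0.22 for Spred1 in the naive comparison, -0.11 to 0.055 for Dusp6 and -0.18 to 0.061 for Egr1 in the primed comparison, and -0.028 to 0.14 for the Etv4 difference.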
